A study of Ananas comosus with 48 samples.

Results

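miR530 is a plant microRNA (miR), and the data hold both arms of its precursor, miR530a-5p and miR530a-3p. The 2 arms were chosen by name from a table of 190 mature sequences, and their counts in all 16 groups of libraries were known when they were chosen. For this reason their levels are given as a description, without p-values. The small RNA came from the shoot apex of pineapple (Ananas comosus, cultivar 'MD1', also called PRI 73-50) grown in a commercial field. The apices came from plants injected in the centre with 50 mg ethephon in 10 ml water, or with 10 ml water alone. Ethephon breaks down to ethylene and is used by growers to force pineapple to flower. Each treatment was sampled at 6 hours, on each day from 1 to 6 and at day 8, with 3 libraries at each sampling (16 groups, 48 libraries), and each library pooled the apices of 3 plants. The first plants were harvested on the morning they were injected. The label of 6 hours marks the end of their dissection, which ran later in the day than at the other samplings. Young leaves remained on the dissected apices of both treatments, so neither group was meristem alone, and no marker gene of the shoot apex is among the miRs with which to check the labelled tissue.

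A plant miR is cut as a duplex from a hairpin precursor by a Dicer-like enzyme. An ARGONAUTE protein keeps 1 strand of that duplex, which guides it to matching messenger RNAs, while the other strand is usually degraded. The strand from the 5′ side of the hairpin is called 5p and the strand from the 3′ side 3p. In rice, miR530 restrains grain size and panicle branching, its target OsPL3 encodes a protein with a PLUS3 domain, and the light-signalling factor OsPIL15 promotes its transcription.

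The 2 mature sequences are shown because the counts that follow are counts of these. Each is written 5′ to 3′ as the deposited table lists it, with the seed (bases 2 to 8) in capitals.
miR530a-5p: uGCAUUUGcaccugcaccugu
miR530a-3p: aGGUGCAGggacagaugcagc
Each sequence also carries the name of the same arm of miR530b, so the reads do not show which of these genes they came from. Both arms were 21 nt long, as were 133 of the 190 listed sequences. miR530a-5p began with U, as did 73 of the 190, and miR530a-3p began with A, as did 37 of the 190. The GC content was 52.4% in the 5p arm and 61.9% in the 3p arm, against a median of 52.4% over the listed sequences. Neither seed was shared with any of the other 188 sequences (0 of 188). The nearest other sequence was miR444b-3p for the 5p arm, at 7 edits, and miR167a-3p for the 3p arm, at 8 edits. The 5p arm carried the hexamer CACCUG at positions 9 and 15, counted from its 5′ end, and 15 of the 190 sequences held a repeated hexamer of any letters.

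The predicted pairing of the 2 arms is shown because the ratio of the arms is compared between the treatments further on. Capitals mark bases that were paired in the duplex of lowest predicted energy.
miR530a-5p, paired bases: UGCAUUUGcaCCUGCACCUgu
miR530a-3p, paired bases: AGGUGCAGGgaCAGAUGCAgc
The duplex had 17 base pairs, 1 of them G-U, and a predicted energy of −30.5 kcal/mol. Each arm ended in a 3′ overhang of 2 bases, the geometry that Dicer-like enzymes leave. A further 2 bases inside each arm were unpaired, and all 7 seed bases of each arm were paired.

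Library totals over the listed sequences ranged from 18581 to 91791 counts with a median of 61482. The median was 54545 counts in ethephon libraries and 65208 in water libraries. A floor of 3 counts corresponded to 29.7 to 140 CPM (counts scaled to a common library total), depending on the library. The CPM used throughout were scaled by the trimmed mean of M-values (TMM), which sets most sequences level between libraries. Of the 190 sequences, 57 had enough counts to be tested, and both arms were among them.

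Both arms were detected in all 48 libraries, the 5p arm at far higher counts. miR530a-5p had 24133 counts in all, ranked 9 of the 190 sequences and made up 0.820% of all counts. It had 170 to 1098 counts per library, with a median of 476.5. miR530a-3p had 1599 counts, ranked 28 and made up 0.0544% of all counts. It had 11 to 85 counts per library, with a median of 28.5, so a single library gave its level with a wide counting error. For scale, the most abundant sequence, miR159c-3p, took 38.0% of all counts. In bulk tissue such as this, fewer cells that carry a miR and less of it per cell cannot be told apart.

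The 5p arm, the more abundant strand, varied widely between libraries of the same group. At 6 hours miR530a-5p had 5900, 4917 and 2057 CPM in ethephon apices, against 4211, 11018 and 4664 CPM in water apices. At day 1 it had 7839, 6771 and 16515 CPM in ethephon apices and 9146, 8974 and 10044 CPM in water apices. At day 2 it had 19451, 4079 and 17117 CPM in ethephon apices and 2766, 8826 and 20839 CPM in water apices. The treatments overlapped at all 3 of these samplings, and at day 2 the libraries of a single group lay as far apart as 4.77-fold with ethephon and 7.53-fold with water. At day 3 miR530a-5p had 6299, 6203 and 5124 CPM in ethephon apices, against 21970.2, 16522 and 8698 CPM in water apices. Every ethephon library was then below every water library, and the ethephon libraries lay within 1.23-fold of each other. At day 4 it had 5501, 4158 and 4149 CPM in ethephon apices and 5213, 6586 and 7555 CPM in water apices. At day 5 it had 5443, 14984 and 8655 CPM in ethephon apices and 9559, 8124 and 5458 CPM in water apices. The treatments overlapped at both days. At day 6 it had 5826, 8523 and 7339 CPM in ethephon apices, against 9859, 20605 and 9354 CPM in water apices, again without overlap and with the ethephon libraries lower. At day 8 it had 7276, 11582 and 9934 CPM in ethephon apices and 15166, 7266 and 8676 CPM in water apices, which overlapped.

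The 3p arm, the less abundant strand, was above the water libraries in all ethephon libraries at 3 of the 8 samplings. At 6 hours miR530a-3p had 352, 510.4 and 194 CPM in ethephon apices, against 683, 499.9 and 381 CPM in water apices. At day 1 it had 524, 694 and 687 CPM in ethephon apices and 519, 535 and 492 CPM in water apices. Both samplings overlapped. At day 2 it had 665, 585 and 892 CPM in ethephon apices, against 489, 553 and 366 CPM in water apices, and every ethephon library was above every water library. At day 3 it had 614, 265 and 743 CPM in ethephon apices and 381, 298 and 587 CPM in water apices, which overlapped. The widest separation came on the following days. At day 4 miR530a-3p had 924, 759 and 996 CPM in ethephon apices, against 467, 320.3 and 339 CPM in water apices. At day 5 it had 1483, 840.2 and 573 CPM in ethephon apices, against 239, 386 and 261 CPM in water apices. At both days all 3 ethephon libraries were above all 3 water libraries. The library with 840.2 CPM had the lowest total of all libraries, 18581 counts. At day 5 miR530a-3p had 85, 18 and 27 counts in ethephon apices, against 14, 21 and 19 counts in water apices. At day 6 it had 723, 886 and 623 CPM in ethephon apices and 214, 807 and 354 CPM in water apices, where a single water library lay inside the ethephon range. At day 8 it had 563, 453 and 422 CPM in ethephon apices and 656, 387 and 408 CPM in water apices, which overlapped.

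**Figure D1:**
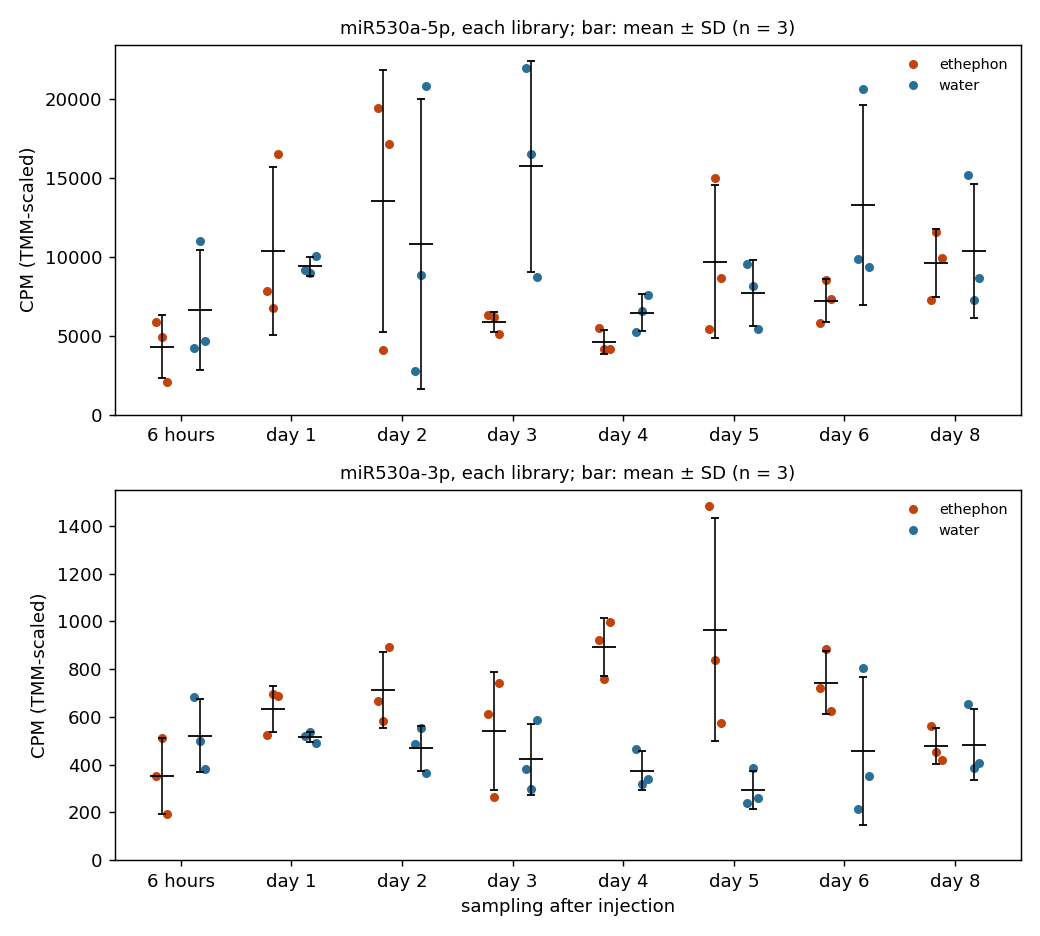
TMM-scaled CPM (vertical axes, linear, from 0) of miR530a-5p (upper panel) and miR530a-3p (lower panel) at each sampling (horizontal axis), with a point for each library, ethephon left of water, and bars for the mean ± SD of 3 libraries. The ethephon points of the 5p arm lie below all water points at days 3 and 6, and those of the 3p arm lie above all water points at days 2, 4 and 5.

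On average over the 8 samplings the 5p arm was lower and the 3p arm higher in ethephon apices. miR530a-5p averaged 8152 ± 4572 CPM in ethephon apices and 10046 ± 5263 CPM in water apices (SD, n = 24 each), a fitted log2 fold change of −0.34 (SE 0.17). miR530a-3p averaged 665 ± 268 CPM in ethephon apices and 443 ± 146 CPM in water apices (SD, n = 24 each), a log2 fold change of 0.54 (SE 0.14). The 5p value varied with the settings, and was −0.15 (SE 0.16) without TMM factors and −0.20 without water replicate 2 at every sampling. Leaving out the TMM factors moved the median of all 57 tested sequences by 0.12, and the 5p arm was then 0.22 below that median, against 0.29 below it with TMM. The median log2 fold change of the 57 was −0.05. Of the 57, with both arms among them, 11 (19.3%) rose and 13 (22.8%) fell in that averaged comparison by edgeR's quasi-likelihood test at an adjusted p of 0.05. These counts are given as background only, because the arms were chosen with this contrast known. The fitted log2 fold change of the 5p arm was below 0 at 5 samplings and above 0 at 3, and that of the 3p arm was above 0 at 7 and below 0 at 1. Values smaller than their SE are counted here by their sign alone, and some of them changed sign under other settings.

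The 5p arm differed most at day 3, where it averaged 5875 ± 653 CPM in ethephon apices and 15730.3 ± 6671 CPM in water apices (SD, n = 3 each), a log2 fold change of −1.42 (SE 0.48). That value ranked 55 of 57 from the top, and 13 of the 57 sequences (22.8%) had all ethephon libraries below all water libraries at day 3. Day 6 was next, with 7229 ± 1352 CPM in ethephon apices and 13273 ± 6355 CPM in water apices (SD, n = 3 each), a log2 fold change of −0.88 (SE 0.48). At day 6, 11 of the 57 (19.3%) had ethephon below water without overlap. The day 6 difference leaned on water replicate 2, without which the log2 fold change was −0.34, and without TMM factors the day 6 libraries overlapped. At 6 hours the log2 fold change was −0.63 (SE 0.48), but it was −0.13 without ethephon replicate 3, 0.018 without water replicate 2 and −0.22 without TMM factors. At day 4 it was −0.49 (SE 0.48). Scaled to all tags, the day 4 value was −0.78, and only then were all ethephon libraries below all water libraries. The share of the 57 that did so on that scale was not counted. On it the median of all 57 moved by −0.33 at day 4. The 5p arm was 0.47 below this median, against 0.50 below it with TMM. At days 1, 2, 5 and 8 the log2 fold change was 0.14, 0.33, 0.32 and −0.11, each smaller than its SE of 0.48. At day 2 it was 1.197 without water replicate 3.

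The 3p arm differed most at day 5, where it averaged 965 ± 468 CPM in ethephon apices and 296 ± 79.1 CPM in water apices (SD, n = 3 each). The fitted log2 fold change was 1.74 (SE 0.40), a fold of 3.34, and 1.22 without ethephon replicate 1, the highest library. At day 4 it averaged 893 ± 121 CPM in ethephon apices and 376 ± 80.1 CPM in water apices (SD, n = 3 each), a log2 fold change of 1.24 (SE 0.37) and a fold of 2.37. Both values ranked 1 of the 57 tested sequences at their day. Without overlap and with ethephon above were 6 of the 57 (10.5%) at day 4 and 8 of the 57 (14.0%) at day 5. At day 2 the log2 fold change was 0.56 (SE 0.39) and 6 of the 57 (10.5%) had ethephon above water without overlap. Scaled to all sequencing tags rather than to the listed sequences, the day 2 value was −0.012 and the libraries overlapped. On that scale the median of all 57 sequences moved by −0.54 at day 2, and the 3p arm stayed 0.47 above this median, against 0.50 above it on the TMM scale. At day 6 the log2 fold change was 0.70 (SE 0.38), and 1.45 without water replicate 2. At 6 hours it was −0.55 (SE 0.38). This 6-hour value was −0.94 without ethephon replicate 2, −0.10 without ethephon replicate 3, −0.16 without water replicate 1 and −0.25 without TMM factors. At days 1, 3 and 8 it was 0.30, 0.32 and 0.02, each smaller than its SE of 0.38 to 0.39.

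**Figure D2:**
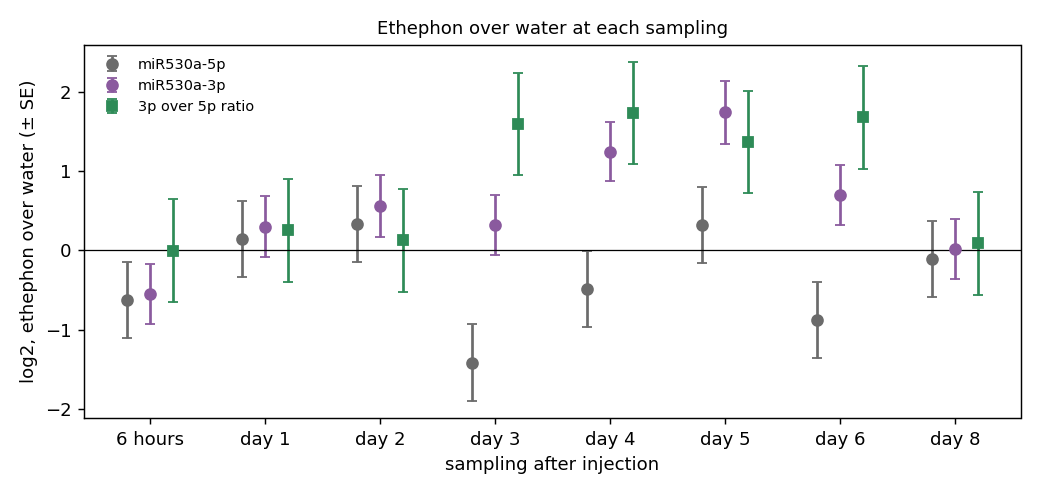
Fitted log2 fold change of ethephon over water for miR530a-5p and miR530a-3p, and the difference of the log2 ratio of 3p to 5p counts (vertical axis), at each sampling (horizontal axis), with bars of ± SE. The ratio stands at 1.37 to 1.73 from day 3 to day 6 and at −0.0046 to 0.25 at the other samplings.

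The ratio of the arms compares the 2 strands within a library, so library scaling does not enter it. The depth of the library can still enter it, and shares by library total are given further on. The share of the 3p arm among all miR530 counts is given first, with Wilson 95% intervals that cover counting error only. Over all libraries the 3p arm made up 8.17% of miR530 counts in ethephon apices (929 against 10448 of the 5p arm) and 4.67% in water apices (670 against 13685). At 6 hours the pooled share was 8.00% in ethephon apices and 7.97% in water apices. At days 1, 2 and 8 it was 6.16%, 5.46% and 4.65% in ethephon apices, against 5.18%, 5.34% and 4.57% in water apices. The treatments parted in between, with shares at days 3, 4, 5 and 6 of 8.51%, 16.2%, 11.1% and 9.49% in ethephon apices and of 3.14%, 5.60%, 3.72% and 3.35% in water apices.

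Library by library, the 3p share at day 3 was 8.88%, 4.104% and 12.7% in ethephon apices and 1.70%, 1.77% and 6.32% in water apices, which overlapped. At day 4 it was 14.4%, 15.4% and 19.4% in ethephon apices, against 8.23%, 4.64% and 4.29% in water apices. At day 5 it was 21.4%, 5.31% and 6.21% in ethephon apices, against 2.44%, 4.54% and 4.57% in water apices. The ethephon libraries were above the water libraries at both days, at day 5 by a narrow margin apart from replicate 1. At day 6 the share was 11.0%, 9.42% and 7.82% in ethephon apices, against 2.12%, 3.77% and 3.64% in water apices, with all ethephon libraries again above. The highest share of the 48 libraries was 21.4% in ethephon replicate 1 of day 5 (interval 17.7 to 25.7%). The lowest was 1.70% in water replicate 1 of day 3 (interval 1.02 to 2.84%). At the early and last samplings the shares of both treatments overlapped. They were 5.63%, 9.40% and 8.60% in ethephon apices and 14.0%, 4.34% and 7.55% in water apices at 6 hours. At day 2 they spread most, with 3.31%, 12.5% and 4.95% in ethephon apices and 15.02%, 5.89% and 1.73% in water apices. At day 1 they were 6.26%, 9.30% and 3.99% in ethephon apices and 5.37%, 5.63% and 4.67% in water apices. At day 8 they were 7.18%, 3.76% and 4.07% in ethephon apices and 4.14%, 5.05% and 4.49% in water apices, so that each water library lay within the range of the ethephon libraries.

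**Figure D3:**
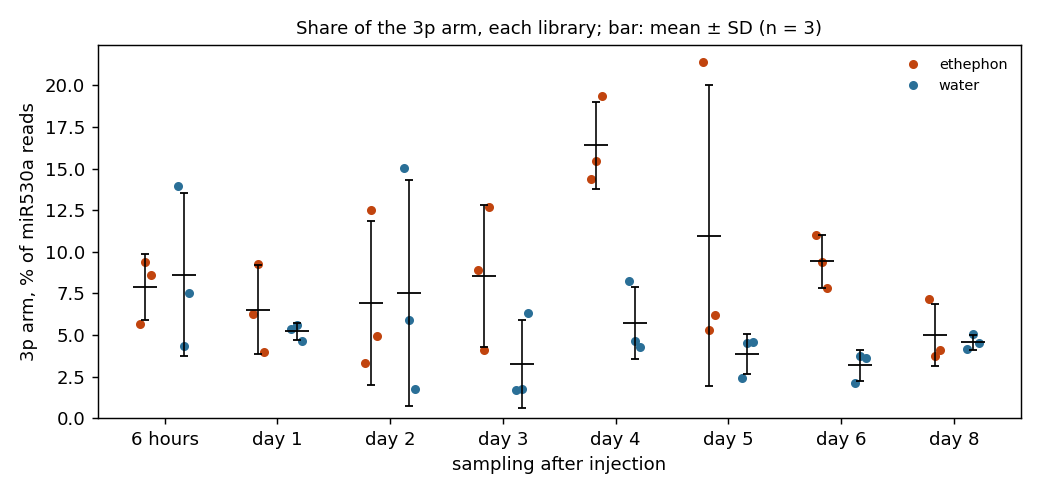
Share of the 3p arm in percent of miR530a counts (vertical axis, linear, from 0) at each sampling (horizontal axis), with a point for each library, ethephon left of water, and bars for the mean ± SD of 3 libraries. All 3 ethephon points lie above all 3 water points at days 4, 5 and 6.

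On the log2 scale the ratio of 3p to 5p, taken as ethephon minus water, was 1.59 at day 3, 1.73 at day 4, 1.37 at day 5 and 1.67 at day 6 (SE 0.65 each, n = 3 libraries a group). At 6 hours and days 1, 2 and 8 it was −0.0046, 0.25, 0.13 and 0.09, each well inside its SE. Averaged over the 8 samplings it was 0.85 (SE 0.23), a ratio 1.81-fold higher in ethephon apices. Single libraries moved the daily values. The day 5 value was 0.65 without ethephon replicate 1, and the day 3 value was 2.23 without water replicate 3. The day 2 value was 0.92 without water replicate 1 and −0.72 without water replicate 3, so no direction is given for that day. Because the 5p arm is most of the total, the share moved with either arm. At day 3 the 5p arm had its lowest log2 fold change while that of the 3p arm was 0.32. At day 5 the 3p arm had its highest while that of the 5p arm was 0.32.

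The listed sequences held 12 miRs of which both arms were tested, miR530a among them, which gives a background for a change of arm ratio. At day 4, 1 of the 12 pairs (8.33%) had all ethephon libraries above all water libraries. The count was 1 of 12 (8.33%) at day 5 and 3 of 12 (25.0%) at day 6, and miR530a was in each of these counts. Averaged over the samplings, its difference of 0.85 ranked 1 of the 12. The next were miR160a at 0.72 (SE 0.19), a miR that targets auxin response factors, and miR164a at 0.54, which targets NAC transcription factors of organ boundaries. The lowest was miR171f at −0.76 (SE 0.09). The difference was above 0 in 8 pairs and below 0 in 4, with a median of 0.14. The 5p arm was the more abundant in 7 of the 12 pairs, miR530a included.

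**Figure D4:**
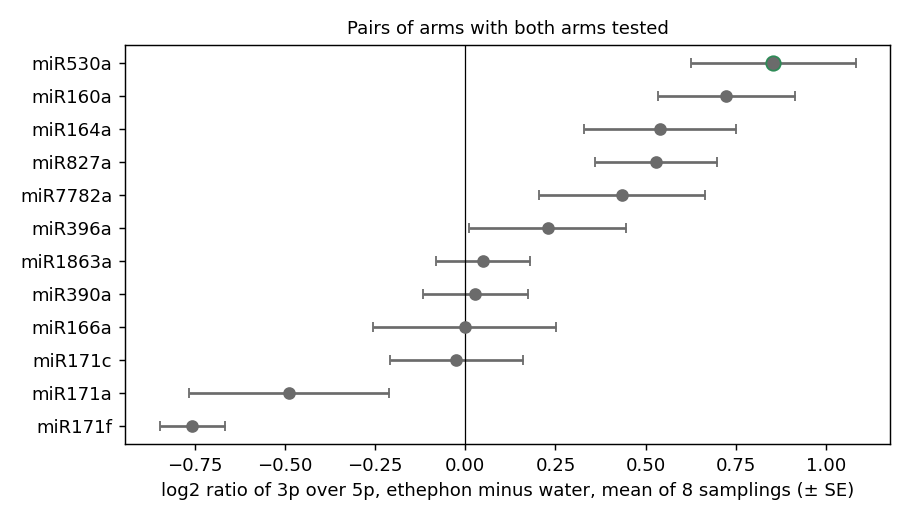
Difference of the log2 ratio of 3p to 5p counts, ethephon minus water, averaged over 8 samplings (horizontal axis) for the 12 miRs with both arms tested (vertical axis), with bars of ± SE. miR530a is at the top at 0.85 and miR171f at the bottom at −0.76.

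Across the samplings the arms had different high and low points. Each point was picked from the group means after they were seen, so a gap between extremes can come from the picking alone. The share of the other tested sequences with such a gap was not counted. In ethephon apices miR530a-5p was highest at day 2 (13549 CPM) and lowest at 6 hours (4291 CPM), a ratio of 3.16 between groups that overlapped. In water apices it was highest at day 3 (15730.3 CPM) and lowest at day 4 (6451 CPM), a ratio of 2.44 without overlap. miR530a-3p was highest at day 5 (965 CPM) and lowest at 6 hours (352 CPM) in ethephon apices, a ratio of 2.74 without overlap. In water apices it was highest at 6 hours (521 CPM) and lowest at day 5 (296 CPM), a ratio of 1.76 between overlapping groups. Day 5 thus held both the highest group of the 3p arm, with ethephon, and its lowest, with water, which lay 3.27-fold apart. When the 16 groups were put in order of their means, neighbours overlapped in 15 of 15 cases for either arm and for the 3p share. The order of adjacent groups is therefore not resolved. The mean 3p share was highest in ethephon apices of day 4 (16.4%) and lowest in water apices of day 6 (3.18%), 5.16-fold apart.

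The level of the 5p arm also moved with the total count of the library. In the 6 libraries with the lowest totals (18581 to 47043 counts, 5 of them ethephon) miR530a-5p had a median of 15750 CPM. In the 6 with the highest totals (77813 to 91791, 2 of them ethephon) the median was 5711 CPM, and in the other 36 it was 7447 CPM. The medians of miR530a-3p in the same libraries were 676, 538 and 505.2 CPM, a smaller range. On the scale of 10000000 sequencing tags, the medians of the 5p arm were 407 in the lowest, 287 in the highest and 334 in the other libraries. At day 3, where the 5p arm differed most, totals were 70876 to 91791 in ethephon libraries and 47806 to 83154 in water libraries. At day 4, where the 3p arm differed, they were 53826 to 62293 in ethephon libraries and 71815 to 74699 in water libraries. The 3p share also differed with the total. It was 3.31% to 5.37% in the 6 libraries with the lowest totals and 4.49% to 15.02% in the 6 with the highest. In the other 36 it was 1.70% to 21.4%. The part of depth in the treatment differences, that of the ratio included, was not tested.

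**Figure D5:**
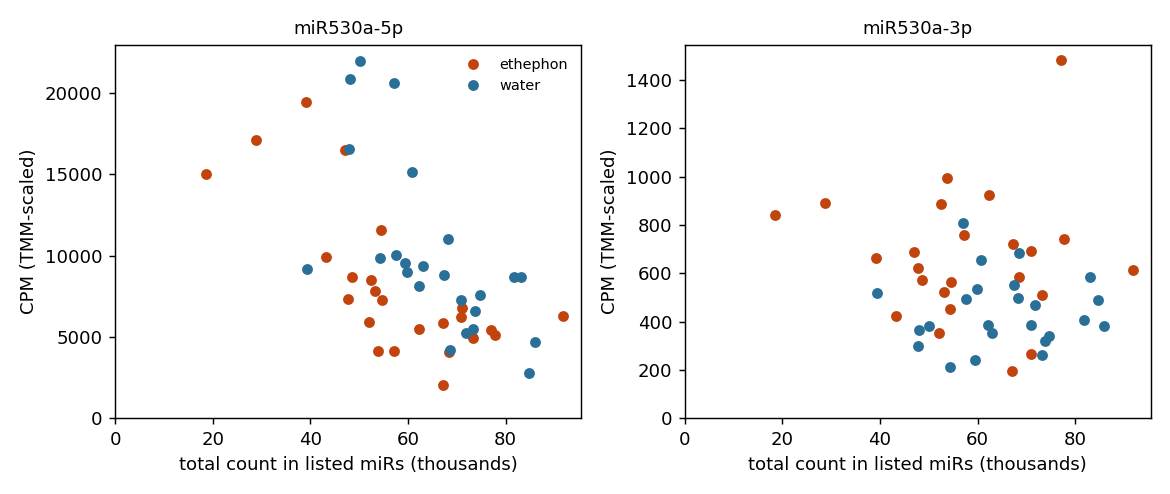
TMM-scaled CPM (vertical axes, linear, from 0) of miR530a-5p (left) and miR530a-3p (right) against the total count of each library (horizontal axes), with a point for each of the 48 libraries. The 5p arm reaches its high values in libraries of low to middle total, with a median of 15750 CPM in the 6 lowest.

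By the Pearson correlation of log2 CPM over the 16 group means, the sequences most like miR530a-5p were miR159c-3p (r = 0.72), miR171a-5p (r = 0.68) and miR160a-3p (r = 0.58). Spearman's rho was 0.61, 0.69 and 0.51 for these. Within the 8 ethephon group means r was 0.75, 0.80 and 0.72, and within the 8 water group means it was 0.60, 0.41 and 0.35. The sequences most like miR530a-3p were miR166d-5p (r = 0.57), miR171c-5p (r = 0.43) and miR168a-5p (r = 0.36). For these r was 0.39, 0.12 and 0.69 within ethephon and 0.22, 0.10 and 0.14 within water. The median r with the 55 other tested sequences was 0.05 for the 5p arm and −0.06 for the 3p arm. Between the 2 arms of miR530a r was 0.00 and rho −0.01 over the 16 groups. These correlations describe group means that share libraries and scaling, and they are given without a test.

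Other miRs with known roles near that of miR530 were counted on the same averaged comparison by edgeR's quasi-likelihood test, with adjusted p-values over all 57 sequences. Of the families known in rice for panicle branching or grain size, as miR530 is, 6 of 32 listed sequences were tested, and 0 rose and 2 fell, with a median log2 fold change of −0.40. Over all 57, 19.3% rose and 22.8% fell, and with so few tested the list is not set apart by these counts. miR172a-3p, which restrains AP2-like factors that delay flowering, fell by 0.52 on the log2 scale (SE 0.09, adjusted p = 1.1e-05), lower in 8 of 8 samplings. It averaged 1031 ± 258 CPM in ethephon apices and 1460 ± 332 CPM in water apices (SD, n = 24 each). miR396a-5p, a regulator of GRF transcription factors, fell by 0.59 (SE 0.11, adjusted p = 2.1e-05), lower in 7 of 8 samplings. The authors' calls at single samplings are another measure than this average. They did not call miR172 at any stage, and saw only a tendency of miR172a to be lower in later treated apices. They described miR396 as up-regulated, with miR396c at 6 hours. Of the families that target the small RNA machinery itself, with either arm counted, 3 of 4 listed sequences were tested. Of these 0 rose and 1 fell, with a median of −0.02, beside the same 19.3% and 22.8% over all 57. The one that fell was miR168b-3p, the opposite arm of a miR that targets ARGONAUTE1, at −0.60 (SE 0.08, adjusted p = 2.55e-08). It averaged 3527 ± 761 CPM in ethephon apices and 5438 ± 1500.4 CPM in water apices (SD, n = 24 each). Not called were miR168a-5p at −0.02 (SE 0.06, edgeR adjusted p = 0.89) and miR162a-3p at 0.04 (SE 0.05, edgeR adjusted p = 0.60).

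Families of leaf development were counted too, since young leaves were left on the apices. Of 23 listed sequences, 15 were tested, and 4 rose and 3 fell, against 19.3% that rose and 22.8% that fell over all 57. The median log2 fold change of the list was −0.06, against −0.05 over all 57. 3 of the 23 had no count in any library. By edgeR, the smallest adjusted p of this list was that of miR166d-5p, with a log2 fold change of 0.56 (SE 0.10, adjusted p = 1.3e-05). Next was miR396a-5p at −0.59 (SE 0.11, adjusted p = 2.1e-05), which is also among those that fell in the rice list. The scarcer arm miR164a-3p came after it, with 0.92 (SE 0.21) and an adjusted p of 0.000313 by the same test. Its level was higher with ethephon at 8 of 8 samplings. It averaged 289 CPM in ethephon apices and 144 CPM in water apices, against 3755 and 2888 CPM for miR164a-5p. The summed level of the list was 97395 to 198823 CPM in ethephon libraries and 92834 to 194630 CPM in water libraries. At day 3, where the 5p arm differed most, the list ran at 179415 to 198823 CPM in ethephon and 155801 to 175218 CPM in water libraries, without overlap. How often other sums of tested sequences lay apart at that day was not counted. At days 4, 5 and 6, where the 3p share was apart, the list overlapped between treatments. At day 4 it ran at 168605 to 186486 CPM in ethephon and 163228 to 171585 CPM in water libraries. At day 5 it ran at 126876 to 168035 CPM in ethephon and 124753 to 154379 CPM in water libraries. At day 6 it ran at 97395 to 127213 CPM in ethephon and 105123 to 166106 CPM in water libraries. Its part in the levels of miR530 was not tested.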

How the data were processed

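Small RNA libraries of 48 apex samples were used, each from 3 pooled plants of a field replication. The authors cut adapters from the reads, collapsed identical reads and aligned them to mature miRs of miRBase. The name of the aligner is not given in the sources used here. The deposited table holds raw counts per mature sequence and a rounded score, reads per 10000000 sequencing tags. A second deposited file pairs each sequence with its names and is of another kind, without measurements. The authors' summed columns were not used.

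The members and lists were chosen with earlier results of these data known. Counts were fitted with edgeR 4.0.16 in R 4.3.3 (glmQLFit, 16 group means, TMM factors), after a filter at a minimum count of 10 that kept 57 of 190 sequences. p-values were adjusted by the Benjamini-Hochberg method over all 57. They set a difference against the spread between libraries of a group, each of 3 pooled plants. SE of a log2 fold change was its size over the root of F. The arm ratio was log2 of the 3p count over the 5p count, with 0.5 added to each. Tags per library were recovered from scores of at least 100 and their counts. Named sequences were the members, the 3 most like each arm, at most 4 of each list by smallest p and the most abundant sequence. The arm pairs and nearest sequences named besides were chosen after their values were seen. Pairing of the arms was predicted with RNAduplex of ViennaRNA 2.7.2. DESeq2 1.42.0 and other scalings, filters and left-out libraries were alternatives. The fit was tested on simulated data.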

Additional observations from a re-analysis of the deposited data

How the results depend on the processing

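Of 340 recomputed values, 334 moved by less than 1 SD between replicates. That SD was 0.69 for miR530a-5p, 0.45 for miR530a-3p and 0.79 for the ratio, on the log2 scale. It is wider than the SE of the averages over samplings (0.17, 0.14 and 0.23), so for these it is a loose measure. The sign changed in 28 of the 340, of which 26 were values smaller than their SE, and in 0 of the averages over samplings. The other 2 were larger than their SE. miR530a-5p at 6 hours was 0.018 without water replicate 2 (−0.74 to 0.018 when each library was left out in turn), and miR530a-3p at day 2 was −0.012 on the scale of all tags. The other 5 that moved are given in the report beside their day. The averages over 8 samplings ran from −0.43 to −0.20 for miR530a-5p, from 0.50 to 0.65 for miR530a-3p and from 0.79 to 0.93 for the log2 ratio when a replicate was left out of every sampling. Under the other settings they ran from −0.43 to −0.15, from 0.42 to 0.70 and from 0.85 to 0.98, and the 5p value without TMM factors (−0.15) was smaller than its SE of 0.16. Without the library of lowest total, a choice made after seeing the data, they were −0.36, 0.58 and 0.91. With both arms left out, the count of sequences called was 23, and 19 to 24 under the alternatives.

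The labels do not say whether a replicate number marks the same field replication in both treatments. Of 24 pairs of same-numbered libraries, 7 had deviations that correlated above 0.1, with a median r of 0.03. With 3 libraries a group, these correlations cannot decide whether the libraries were paired. With the number as a replicate block the averages were −0.34 (SE 0.17) for miR530a-5p, 0.54 (SE 0.14) for miR530a-3p and 0.85 (SE 0.04) for the ratio. Without the block the SE were 0.17, 0.14 and 0.23. The 0.23 was combined from the SE of single samplings, and the 0.04 was not. With the block the SE of the ratio at single samplings ran from 0.29 to 1.25. The 0.04 therefore does not show that the block made the ratio more exact. Depth limits the 3p arm most, since the 95% interval of its share was 1.78 to 8.77 percentage points wide in single libraries.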
